A study of Mus musculus with 75 samples.

Results

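In mouse skin fibroblasts, 147 genes differed in the same direction with both hairpins against Tead1, 81 of them higher and 66 lower than with a non-targeting hairpin. They were chosen from 24984 genes in the count files. The expression of a gene was taken as CPM, its count scaled to a library sum of 1000000, and compared as log2(CPM + 1). A gene was kept when its mean CPM was at least 5 in 1 or more of the groups Tead1_sh3, Tead1_sh4 and Tead1_nt, which left 10350 eligible genes. It also needed a difference in mean log2(CPM + 1) of at least 0.7 in the same direction with sh3 and with sh4, and 1.42% of the eligible genes met this. The Tead1 libraries chose the genes, so their values there are a description and were not tested.

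The study followed replicative senescence, the arrest of growth that comes with repeated passaging, and then changed the level of E2f4, Tead1 and Atf3. RNA-seq was done at passages P1, P3, P5 and P7 with 4 libraries each, after E2f4 overexpression with 2 libraries and 2 of a vector control, after E2f4 knockdown (sh1) with 3 libraries and 3 of a non-targeting hairpin, and after knockdown of Tead1 (sh3 and sh4) or of Atf3 (sh5 and sh6) with 3 libraries per hairpin and 3 of a non-targeting hairpin. ATAC-seq, which measures open chromatin, was done with 4 samples at P1 and 3 each at P3, P5 and P7. The labels give C57BL/6 skin fibroblasts for every group, untreated for the passages. According to the methods, the passaged cells came from 2-month-old female mice, while the modified cells came from newborn and 2-month-old mice without a statement of which was used for each experiment. The Y-linked genes Ddx3y, Eif2s3y, Kdm5d and Uty were at 0 in all passage groups. They were detected in every group of modified cells, with means of 67.7, 34.9, 15.1 and 14.1 CPM in the Tead1 controls. The modified groups thus held male cells, and their sex differed from that of the passaged cells. Hairpins were delivered by lentivirus, and the cells were selected with puromycin. E2f4 was driven by doxycycline, which is an antibiotic that switches the vector on, in cells at P4 whose controls expressed EGFP. The E2f4 hairpin was used in cells at P3. The paper calls the cells of the Atf3 hairpins pre-senescent and states no passage for those of the Tead1 hairpins. Its methods name a later passage for senescence interventions than for proliferating cells, so the state of the cells may differ between experiments. No label says that replicates came from separate animals, so the p-values below measure the spread between these libraries, which may be technical.

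Library totals were 13430229 to 15725823 counts for the passages, 17460990 to 19440415 for Tead1, 17245955 to 23380496 for Atf3 and 9147324 to 27552949 for E2f4, and all 14 fibroblast markers were detected in every group. Replicate 3 of Atf3 sh5 stood apart, with a chi-square over its degrees of freedom of 55.9 and 59.9 against the other replicates, which gave 3.2 between them. Replicate 1 of P7 gave 31.1 to 41.1 against the other P7 libraries, which gave 10.6 to 15.8 among themselves. Counts that rest on these libraries are given below with and without them. Reads were counted without regard to strand, so overlapping and antisense genes cannot be told apart, and genes with close copies (Gzme, Oasl2, Sprr2k, Cyp4a12b, Arxes2 and Clca3a1) have uncertain counts.

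TEAD1 is a DNA-binding transcription factor that activates genes together with the coactivators YAP and TAZ. The Hippo pathway restrains it: the MST kinases (Stk3 and Stk4) act on the LATS kinases (Lats1 and Lats2), which phosphorylate YAP and TAZ and keep them out of the nucleus. In fibroblasts, TEAD factors and their coactivators are known for the control of growth, of matrix genes and of connective tissue growth factors.

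Both hairpins match the same stretch of Tead1, offset by 1 base, and this stretch is shown because its letters recur in the lower genes. The stretch lies at chr7:112894360-112894381 of GRCm38 on the plus strand, in the coding part of exon 12 of 13, and is present in all 3 curated transcripts. Below it are stretches of 22 bases from the 3′ UTR of 6 of the lower genes, read 5′ to 3′ from the reference genome of RefSeq (GRCm38), with the run of 8 bases that they share with the target in capitals. The runs were picked after the values were seen.
Tead1 target: cgctcgccaaTGTGTGAAtata
Gjb2, chr14:57099458-57099479, minus strand: agaggttcagTGTGTGAAgtga
Atl2, chr17:79849240-79849261, minus strand: ctcgtgtcacTGTGTGAAcgca
Sumf1, chr6:108107985-108108006, minus strand: ttttttgccaTGTGTGAAtctt
Adi1, chr12:28681103-28681124, plus strand: aaaactgcacTGTGTGAAtctc
Stk4, chr2:164154581-164154602, plus strand: ggttgctgggTGTGTGAAtaaa
Hdlbp, chr1:93407929-93407950, minus strand: ggcacgccacTGTGTGAAacac

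The targeted gene was lower with both hairpins. Tead1 (chromosome 7, 112679356 to 112906784) had 567, 509 and 542 CPM in the non-targeting libraries, 269, 283 and 285 CPM with sh3, and 317, 315 and 320 CPM with sh4. The groups did not overlap, and the log2 difference was -0.95 with sh3 and -0.76 with sh4, so that Tead1 itself is among the 66 lower genes. Its paralogs were measured beside it. Tead2 was at 63.5 to 70.2 CPM in the controls and at 56.2 to 62.2 CPM with either hairpin. Tead3 was at 66.6 to 71.2 CPM in the controls and at 80.6 to 88.0 CPM with either hairpin. Neither of these paralogs reached the threshold.

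Within the Hippo pathway, the kinases at its core went opposite ways. Stk4, which encodes MST1, was lower, with 44.5, 47.6 and 44.7 CPM in the controls, 23.5, 24.0 and 26.9 CPM with sh3, and 23.0, 26.4 and 23.4 CPM with sh4. Lats2, which inactivates YAP and TAZ, was higher, with 197, 195 and 188 CPM in the controls, 303, 332 and 325 CPM with sh3, and 322, 323 and 331 CPM with sh4. In both genes every hairpin library stood on the same side of every control library. Among 32 eligible genes of the Hippo list, these 2 and Tead1 were the only ones past the threshold with both hairpins, and the median difference of the list was -0.05 with sh3 and 0.02 with sh4. The relatives of these kinases had small differences, with log2 -0.11 and -0.08 for Stk3 and 0.24 and 0.26 for Lats1. Of 31 eligible YAP/TEAD target genes, Lats2 and Igfbp3 were past the threshold, both of them higher and none lower, and the median difference of that list was 0.04 and 0.12. Igfbp3, which binds insulin-like growth factors, had 6.36, 7.16 and 6.74 CPM in the controls, 16.1, 16.1 and 13.3 CPM with sh3, and 12.6, 14.3 and 14.0 CPM with sh4. The median differences over all eligible genes were near 0 (-0.0024 and 0.0042).

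**Figure D1:**
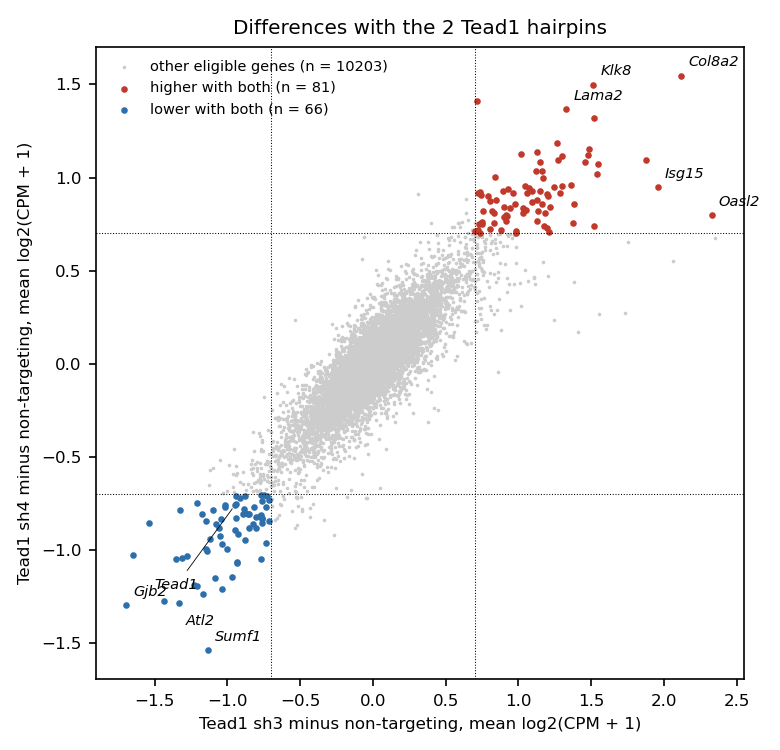
Difference in mean log2(CPM + 1) from the non-targeting libraries with sh4 (vertical axis) against that with sh3 (horizontal axis) for 10350 eligible genes, where dotted lines mark 0.7 and -0.7. The 81 higher genes (red) reach 2.33 with sh3 (Oasl2) and 1.55 with sh4 (Col8a2), and the 66 lower genes (blue) reach -1.70 with sh3 (Gjb2) and -1.54 with sh4 (Sumf1).

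The 81 higher genes had a median difference of 1.09 with sh3 and 0.88 with sh4, and the 66 lower genes -0.94 and -0.86. The difference was larger with sh3 in 60 of the 81 and in 44 of the 66, as the plot of differences shows. In all 147 genes the libraries of each hairpin did not overlap the controls, which the choice of genes by these same libraries makes likely. Of all eligible genes, 33.2% had this property in 1 direction. With sh3 alone 194 genes were higher and 139 lower by 0.7 or more, and with sh4 alone 95 and 93. The genes shared by the hairpins were 41.8% of those higher with sh3 and 85.3% of those higher with sh4, and 47.5% and 71% of those lower. The hairpins share their controls and their target, so this overlap is not independent evidence. Just inside the threshold were Uchl1 (0.98 with sh3 and 0.70 with sh4) and Khk (0.73 and 0.70) among the higher genes, and Riok3 (-0.75 and -0.70) and Samd5 (-0.77 and -0.71) among the lower. Just outside it were Egr3 (0.86 and 0.70) and Nav2 (0.70 and 0.75), whose smaller values were under 0.7 before rounding, and Itga4 (-1.03 and -0.69) and Adgrg6 (-0.69 and -0.77). Of the 147 genes, 145 are protein-coding, 36 stayed under 10 CPM in every Tead1 group and 17 exceeded 100 CPM in a group. They lie on 20 chromosomes, with at most 14 on a chromosome (chromosome 7).

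The matrix list held 3 of the higher genes (Lama2, Smoc2 and Nid2), and Col8a2 and Klk8 are on no list. Col8a2, which encodes a chain of collagen VIII, had 3.04, 2.50 and 2.78 CPM in the controls, 13.1, 16.2 and 16.9 CPM with sh3, and 10.2, 9.96 and 9.86 CPM with sh4. Klk8, a secreted serine protease, had 4.64, 3.70 and 4.73 CPM in the controls, 14.6, 15.0 and 13.1 CPM with sh3, and 12.6, 15.9 and 13.9 CPM with sh4. Lama2, the laminin chain of muscle and nerve basement membranes, had 56.2, 54.2 and 54.0 CPM in the controls, 122, 157 and 141 CPM with sh3, and 139, 138 and 153 CPM with sh4. The lowest hairpin library of each of these genes was above the highest control, and sh3 exceeded sh4 in every library only for Col8a2. Among the other matrix genes, the basement membrane proteins Smoc2 (0.96 with sh3, 0.92 with sh4) and Nid2 (0.82 and 0.82) were also higher. Fbn2, the microfibril protein fibrillin-2, was the only lower gene of 64 eligible matrix genes, with 216, 204 and 213 CPM in the controls, 91.3, 81.6 and 80.9 CPM with sh3, and 96.3, 103 and 106 CPM with sh4. On other lists, Tgfbi, a matrix protein induced by TGF-beta (-0.71 and -0.73), and the matrix protease Adamts9 (-1.04 and -0.97) were lower as well.

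Slco2a1, which takes up prostaglandins, had 57.2, 51.7 and 54.3 CPM in the controls, 159, 173 and 144 CPM with sh3, and 134, 128 and 150 CPM with sh4. Cmklr1, a receptor of the adipokine chemerin, had 21.4, 15.6 and 16.4 CPM in the controls, 42.6, 46.5 and 45.3 CPM with sh3, and 38.2, 36.6 and 43.4 CPM with sh4. Both genes were raised without overlap. The other higher genes with large differences at 10 CPM or more were Prrt4 (1.13 with sh3, 1.13 with sh4), the teneurin Tenm4 (1.48, 1.12), the ephrin Efna3 (1.27, 1.10), Rassf2 with its Ras association domain (1.46, 1.08) and the transcript A730020M07Rik (1.87, 1.09). The growth signals Bmp6 (1.2, 0.90) and Adm, which encodes adrenomedullin (1.07, 0.94), were higher too, as was Ptprv (1.2, 0.73), a phosphatase on the p53 list. Cebpa, a factor of adipocytes, was higher by 0.94 with sh3 and 0.84 with sh4. The summed level of 10 adipocyte markers, of which Cebpa is 1, was 55.4 to 58.5 CPM in the controls, 92.0 to 96.9 CPM with sh3 and 94.7 to 99.9 CPM with sh4. The fat-cell markers Cidec and Retn were at 0 in the controls and in the sh4 libraries, Lep in the controls and the sh3 libraries and Plin1 in the sh4 libraries, and the part of adipocytes in the result was not tested. In bulk RNA, the number of cells of a type and the RNA per cell cannot be told apart.

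Among inflammatory genes, adhesion molecules and Ptgs2 differed in direction. Vcam1, which binds leukocytes, had 119, 131 and 123 CPM in the controls, 233, 244 and 229 CPM with sh3, and 190, 222 and 226 CPM with sh4. Its relative Icam1 was higher by 1.13 and 0.76. Ptgs2, the inducible cyclooxygenase of prostaglandin synthesis, was lower, with 268, 254 and 271 CPM in the controls, 151, 143 and 150 CPM with sh3, and 160, 138 and 137 CPM with sh4. These were the 3 genes past the threshold among 21 eligible chemokine, cytokine and NF-kB genes. Pla1a, a phospholipase on the list of complement and acute-phase genes, differed by -0.77 with sh3 and -0.74 with sh4.

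Interferon-stimulated genes differed mainly with sh3. Isg15, a ubiquitin-like modifier, had 1.09, 1.02 and 1.39 CPM in the controls, 7.32, 5.71 and 9.57 CPM with sh3, and 1.86, 3.32 and 4.85 CPM with sh4. Oasl2, of the oligoadenylate synthetase family, had 0.630, 1.08 and 0.514 CPM in the controls, 9.66, 4.88 and 9.36 CPM with sh3, and 1.09, 1.72 and 3.77 CPM with sh4. In both genes the sh4 libraries lay between the controls and the sh3 libraries, and the lowest sh4 library was close to the highest control. Tap1, a peptide transporter for antigen presentation, was higher by 1.29 and 0.92. The list of 15 eligible interferon-stimulated genes had a median difference of 1.29 with sh3 and 0.44 with sh4, and these 3 genes were past the threshold with both. The promoter of Isg15 holds repeats of the letters of the interferon response element. In the stretch at chr4:156200867-156200904 of GRCm38 (minus strand, from 86 to 49 bases before the start site), overlapping matches to GAAA, any 2 bases and GAAA again are in capitals.
Isg15 promoter: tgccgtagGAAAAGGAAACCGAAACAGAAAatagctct

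**Figure D2:**
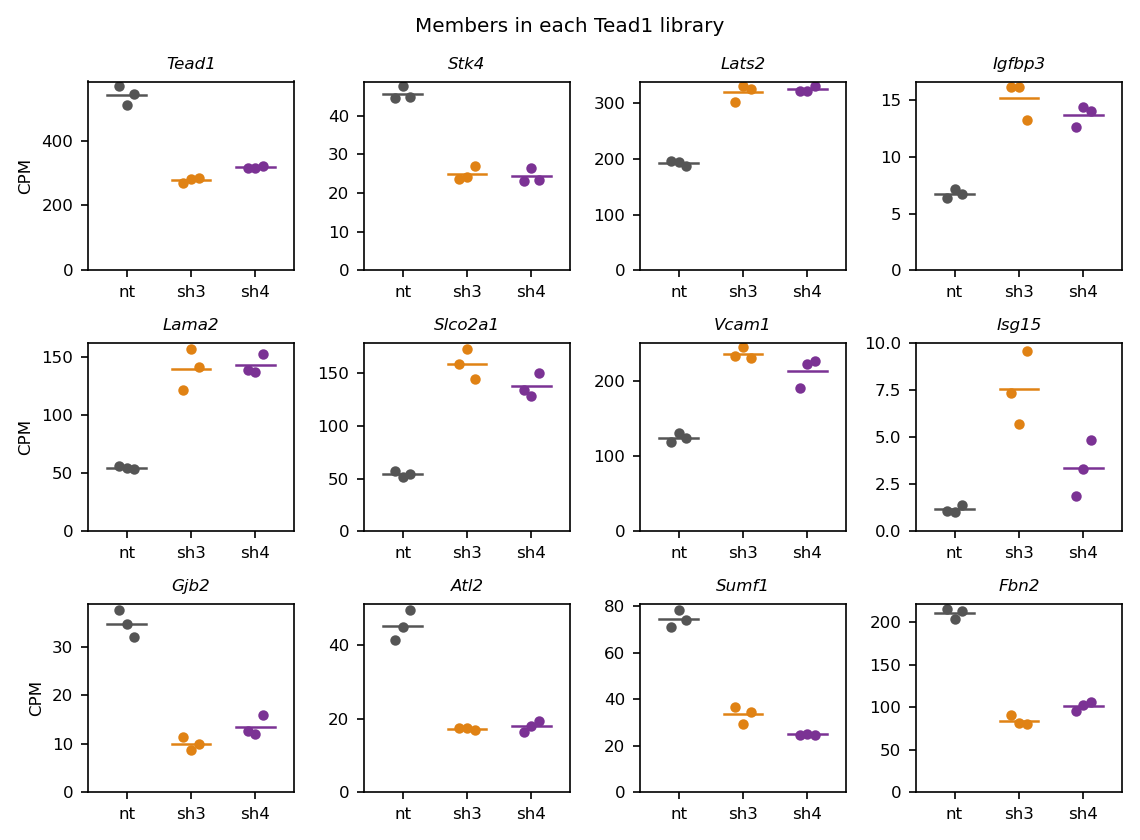
CPM of 12 genes in the 9 Tead1 libraries (points) with the mean of each group (horizontal lines), for the non-targeting hairpin (nt), sh3 and sh4, on axes that start at 0. Tead1, Stk4, Gjb2, Atl2, Sumf1 and Fbn2 sit below their controls in all 6 hairpin libraries, and Lats2, Igfbp3, Lama2, Slco2a1, Vcam1 and Isg15 sit above them.

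The lower genes with the largest differences included enzymes and membrane proteins, beside the matrix proteins Fbn2, described above, and Tnn. They had no common list. Gjb2, the gap junction protein connexin 26, had 37.5, 34.6 and 32.0 CPM in the controls, 11.5, 8.67 and 10 CPM with sh3, and 12.7, 12.1 and 15.9 CPM with sh4. Atl2, a GTPase that shapes the endoplasmic reticulum, had 41.3, 44.9 and 49.6 CPM in the controls, 17.4, 17.6 and 16.9 CPM with sh3, and 16.4, 18 and 19.5 CPM with sh4. Sumf1, which activates sulfatases, had 71.1, 78.5 and 73.9 CPM in the controls, 36.6, 29.6 and 34.5 CPM with sh3, and 24.9, 25.3 and 24.6 CPM with sh4. Of these, Sumf1 was lower with sh4 than with sh3 in every library, and Gjb2 was lower with sh3 in every library. Gyg, the primer of glycogen synthesis, differed by -1.43 with sh3 and -1.28 with sh4. The remaining large differences were those of Adi1 of the methionine salvage pathway (-1.09, -1.15), the acyl-CoA binding protein Dbi (-1.23, -1.19), the choline transporter Slc5a7 (-1.21, -1.19), the palmitoyltransferase Zdhhc2 (-1.36, -1.05) and the tenascin Tnn (-1.28, -1.04). From the lists of cell cycle and of glycolysis, Rfc2, a clamp loader of replication (-1.18, -0.81), and Pdk1, which inhibits pyruvate dehydrogenase (-1.21, -0.75), were lower. No gene of the lists of smooth muscle, cholesterol biosynthesis, citrate cycle, oxidative phosphorylation, G2/M, integrated stress response, Wnt signals, cyclin-dependent kinase inhibitors, or FOS, JUN and ATF factors was past the threshold with both hairpins.

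Runs of 7 bases of the hairpin target were counted in the 3′ UTRs, since a short hairpin RNA can act on other messages through some runs of this length. Which runs of these hairpins could do so was not determined. A 3′ UTR was taken from RefSeq (GRCm38) for all 66 lower genes, 79 of the higher genes and 10223 eligible genes. The run TGTGTGA, positions 11 to 17 of the target, was present in 35 of the 66 lower genes (53%), in 18 higher genes (22.8%) and in 21.1% of eligible genes. The run GTGTGAA, positions 12 to 18, was present in 27 lower genes (40.9%), in 8 higher genes (10.1%) and in 14.4% of eligible genes. Of all 16384 runs of 7 bases, these were first and second by the share in lower genes minus the share in eligible genes, at 31.9 and 26.5 percentage points, and the third, ACTTTGT, stood at 19.8 points and is not in the target. For the higher genes the first run, CAGAGAG, also reached 26.5 points, and none of their first 10 runs is in the target. The run of 8, TGTGTGAA, was present in 21 lower genes (31.8%), in 7 higher genes (8.86%) and in 711 eligible genes (6.95%). Nearer the end of the target, the run at positions 14 to 20 was present in 12.1% of lower and 9.4% of eligible genes. The run at positions 15 to 21 was present in 16.7% and 13.9%.

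The 3′ UTRs differed in length as well. Their median length was 1399.5 bases in lower genes, 1626 bases in higher genes and 1134 bases in eligible genes, and TGTGTGA occurred 0.474 times per kilobase in lower genes, 0.136 times in higher genes and 0.175 times in eligible genes. Eligible genes with the run of 8 had a median difference of -0.140 with sh3 and -0.095 with sh4. The 7508 eligible genes with neither run of 7 had 0.014 and 0.016. The run of 8 was built from the runs of the target most common in lower genes, which are among these eligible genes. The medians thus rest on the values that chose the genes and are only a description. The lower genes with the run of 8 include Gjb2, Atl2, Sumf1, Adi1 and the Hippo kinase Stk4, whose stretches are printed above with that of Hdlbp, which shares 15 of the 22 bases of the target. Fully 38 of the 66 lower genes (57.6%) had at least 1 of the runs of 7, against 18 higher genes (22.8%) and 26.6% of eligible genes. The part of these runs in the lower levels was not tested.

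**Figure D3:**
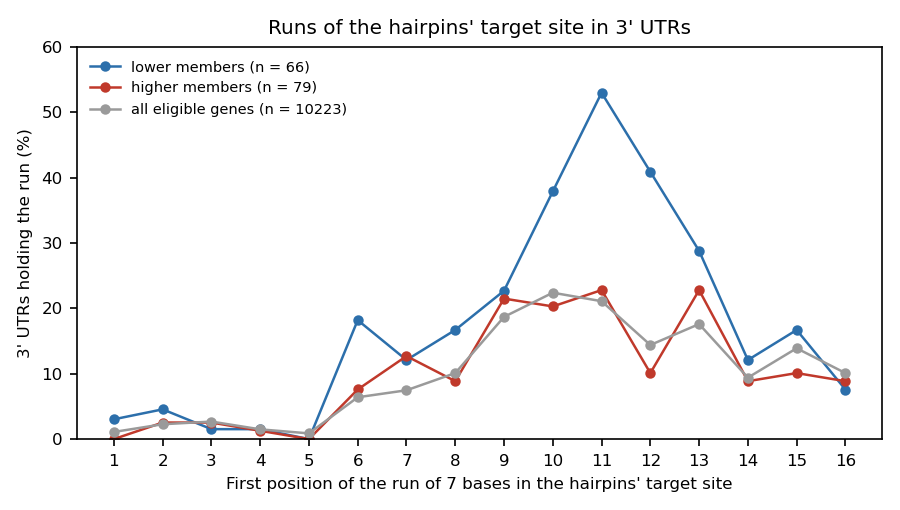
Share of 3′ UTRs (percent) that hold each run of 7 bases of the hairpin target, by the first position of the run (1 to 16), for lower genes (blue), higher genes (red) and all eligible genes (grey). The lower genes peak at positions 11 and 12 (53% and 40.9%), and the higher genes (22.8% and 10.1%) stay near the eligible genes (21.1% and 14.4%) there.

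Promoters were searched on both strands from 250 bases before to 50 bases after the start site for the TEAD core GGAATG (reverse CATTCC). It was present in 17 of 81 higher genes (21%), 15 of 66 lower genes (22.7%), 11.7% of eligible genes and 13.7% of all 24863 promoters. The AP-1 letters TGANTCA were present in 6 higher genes (7.41%) and 3 lower genes (4.55%), with 4.21% of eligible genes and 7.23% of all promoters. The interferon letters (GAAA, any 2 bases, GAAA) were present in 4 higher genes (4.94%) and 3 lower genes (4.55%), with 2.94% of eligible genes and 3.58% of all promoters. Lats2 and Tead1 are among the genes with a TEAD core, and Tead1 holds 3 matches. A match is a description of the letters and not a measured binding site.

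The genes were then followed over the passages, which the choice of genes did not use. The 2 genes Adrb1 and Sprr2k had too few reads to be tested there. Called genes had an adjusted p under 0.05 in the quasi-likelihood test of edgeR and a fold change over 2, and 65 of the 145 tested genes were called at P7 against P1, where 21.4% of 13442 tested genes were called. Higher genes were split between directions, with 22 that rose and 21 that fell among 80 tested and a median log2 fold change of -0.10. Of the lower genes 18 rose and 4 fell among 65 tested, with a median of 0.54. Over all genes tested, 8.1% rose and 13.3% fell, and among the eligible genes 6.64% rose and 7.41% fell, with a median of -0.01 over all genes. Without replicate 1 of P7, 69 of the genes were called. Of the higher genes 23 rose and 23 fell then, and of the lower genes 18 rose and 5 fell. These fold changes are on the TMM scale of edgeR. Scaled by the library sum, as CPM is, the median of all genes was -0.22, 749 of the 3025 called genes rose (1089 of 2881 with TMM), and 19 higher genes rose and 26 fell, while 16 lower genes rose and 7 fell.

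Tead1 itself was not called at any passage. It had 334, 375, 384 and 415 CPM at P1, 414, 449, 485 and 538 CPM at P3, 423, 446, 336 and 353 CPM at P5, and 264, 375, 384 and 394 CPM at P7. The mean was highest at P3, with 471.8 CPM against 376.9 CPM at P1. The lowest P3 library (414.3 CPM) was just under the highest P1 library (414.6 CPM). The paper describes Tead1 as increasing from the early passages. The ranges of P1, P5 and P7 overlapped, and the P7 to P1 change of Tead1 was 0.12 (SE 0.125, adjusted p = 0.418, edgeR). Its mean CPM was lower at P7 than at P1, so its direction depends on the scaling, and with the library sum the change was -0.09. Lats2 and Stk4 changed less than 2-fold, with 0.62 (SE 0.102, adjusted p = 2.86e-05) and 0.20 (SE 0.106, adjusted p = 0.102, both edgeR), where the mean CPM of Stk4 was 56.7 at P1 and 56.4 at P7.

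The genes that rose most from P1 to P7 were lower with the Tead1 hairpins, except for 1500015O10Rik. Ppbp, a platelet chemokine, had 1 read in all 4 P1 libraries together and 5.34, 8.05, 7.64 and 7.87 CPM at P7 (adjusted p = 1.25e-09, edgeR). Gzme, a granzyme of lymphocytes, had 0 to 0.148 CPM at P1 (4 reads in all) and 8.22, 9.55, 7.21 and 9.84 CPM at P7 (log2 fold change 6.95, SE 0.412, adjusted p = 3.78e-11). Gzme lies in a cluster of granzymes of like sequence, so reads may be shared with its neighbours. Both were near 0 until P7, as the plot over passages shows. Krt20, an epithelial keratin, went from 0.135 to 0.372 CPM at P1 to 5.76 to 15.4 CPM at P7 (log2 fold change 5.53, SE 0.382, adjusted p = 2.92e-10, edgeR). Slc5a7 rose by a log2 fold change of 4.60 (SE 0.497, adjusted p = 1.57e-07) and 1500015O10Rik, a higher gene, by 4.58 (SE 0.329, adjusted p = 5.12e-10). Ptgs2 had 17.5, 22.8, 29.1 and 16.2 CPM at P1 and 203, 279, 278 and 200 CPM at P7 (log2 fold change 3.70, SE 0.215, adjusted p = 3.1e-11). It was at 60.6 to 88.2 CPM at P3 and at 34.9 to 66.3 CPM at P5, so the rise was not even over the passages.

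Of the 6 genes that fell most, all but Tnn were higher with the Tead1 hairpins. Sema3d, a secreted guidance protein, had 27.2, 22.9, 22.1 and 29.0 CPM at P1 and 1.08, 0.641, 1.3 and 2.04 CPM at P7 (log2 fold change -4.10, SE 0.253, adjusted p = 5.99e-11, edgeR). Tnn had 194, 189, 161 and 228 CPM at P1 and 14.0, 15.2, 14.4 and 15.1 CPM at P7 (-3.51, SE 0.126, adjusted p = 3.87e-13). In both genes the levels of P1, P3, P5 and P7 followed each other downwards without overlap. The secreted protease Htra3 (-3.33, SE 0.248, adjusted p = 8.3e-10), Oasl2 (-2.64, SE 0.281, adjusted p = 1.26e-07), Igfbp3 (-2.32, SE 0.222, adjusted p = 2.93e-08) and the tetraspanin Tspan18 (-2.11, SE 0.428, adjusted p = 0.000273) also fell. Tspan18 was low throughout, with 23 reads in all at P7.

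Other genes described above for Tead1 changed with passaging in either direction. Vcam1, higher with the hairpins, rose from 33.8 to 47.6 CPM at P1 to 130 to 151 CPM at P7 (log2 fold change 1.97, SE 0.0996, adjusted p = 5.25e-12, edgeR). Icam1, higher with the hairpins as well, fell by 1.10 on the log2 scale (SE 0.192, adjusted p = 5.3e-05). Zdhhc2, lower with the hairpins, rose by 3.02 (SE 0.126, adjusted p = 7.97e-13), and Pdk1 by 1.61 (SE 0.191, adjusted p = 5.27e-07). Among the matrix genes Smoc2 fell by 1.47 (SE 0.145, adjusted p = 4.23e-08), while Lama2 (0.37), Nid2 (-0.88) and Fbn2 (-0.73) did not pass the fold threshold. Of the YAP/TEAD target list 9 rose and 3 fell among 33 tested, and of the interferon list 1 rose and 19 fell among 33. Markers of other cell types moved with passage beside these results. The summed level of 14 macrophage markers was 397 to 615 CPM at P1 and 32.4 to 52.7 CPM at P7, that of 8 endothelial markers 180 to 195 and 11.7 to 14.7 CPM, and that of 10 keratinocyte markers 73.0 to 455 and 4.62 to 7.80 CPM. At P7 the endothelial Cldn5 and the keratinocyte genes Krt14, Krt1 and Krt17 were at 0. Their part in the falls from P1 was not tested.

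**Figure D4:**
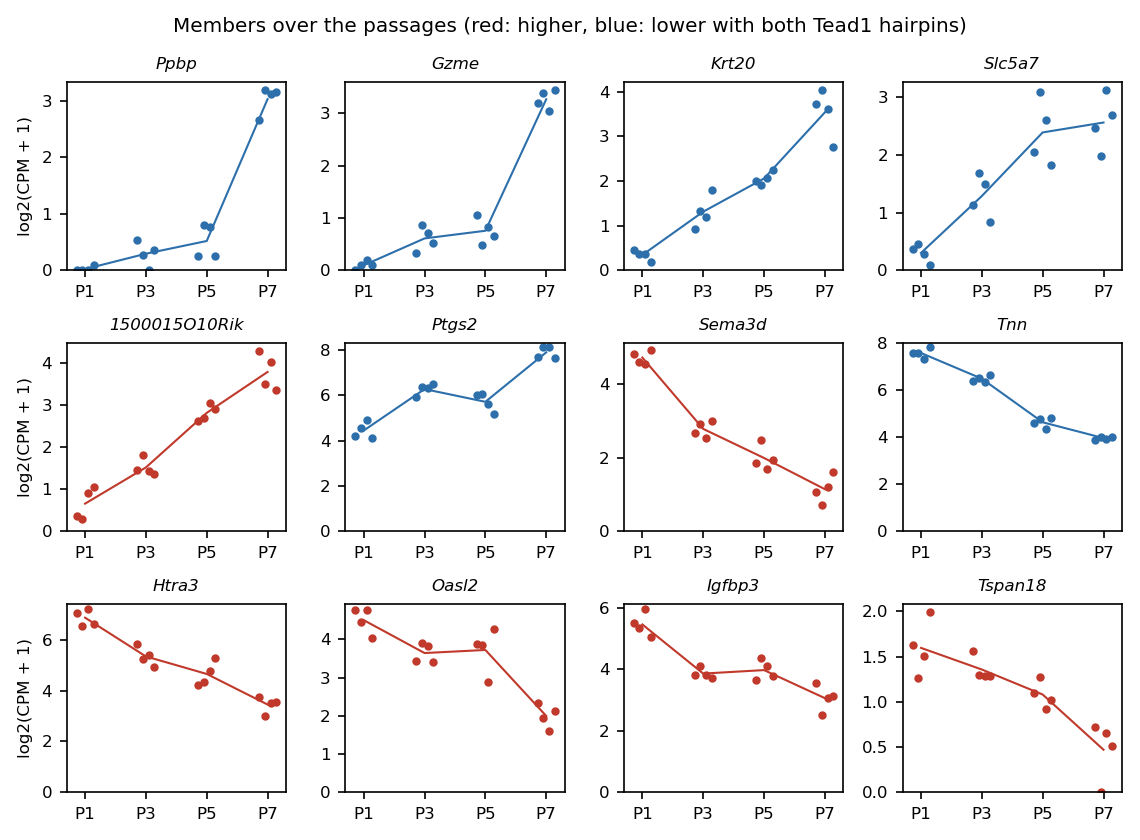
log2(CPM + 1) in each of the 16 passage libraries (points) and the mean of each passage (lines) for the 6 genes that rose most and the 6 that fell most at P7 against P1, red for genes higher and blue for genes lower with the Tead1 hairpins. Ppbp and Gzme stay near 0 until P7, while Sema3d and Tnn fall from P1 on.

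The steps between passages held fewer calls. At P3 against P1, 31 of the 145 genes were called, where 8.98% of all genes were called. Of the lower genes 13 rose and 0 fell, and of the higher genes 9 rose and 9 fell. Over all genes 2.4% rose and 6.58% fell, and among the eligible genes 1.77% and 1.24%. With the library sum in place of TMM, 12 lower genes rose and 2 fell, and 7 higher genes rose and 13 fell, with a median of -0.11 over all genes. DESeq2 also called 13 lower genes that rose and 0 that fell, edgeR with the size factors of DESeq2 called 13 and 1, and edgeR without replicate 3 of P1 or without replicate 4 of P3 called 11 and 2. With no minimum fold change edgeR called 24 lower genes that rose and 6 that fell, and 17 higher genes that rose and 29 that fell. At that setting 4493 of all 13442 genes were called, and 2144 of them rose. Gjb2 had 0.0745, 0.809, 0.295 and 0.471 CPM at P1 and 6.80, 15.4, 8.97 and 7.73 CPM at P3 (log2 fold change 4.64, SE 0.533, adjusted p = 1.74e-06, edgeR), and it had 23 reads in all at P1. Ppbp was called higher at P3 from 14 reads (adjusted p = 0.028), and this call was lost without any 1 of P1 replicates 1 to 3 or of P3 replicates 1 and 4. The genes that fell most were Sema3d (-1.98, SE 0.209, adjusted p = 6.33e-07) and Igfbp3 (-1.58, SE 0.211, adjusted p = 1.09e-05).

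At P5 against P3, 9 genes were called (3.89% of all genes), 7 of which rose. Over all genes 0.841% rose and 3.05% fell, and among the eligible genes 0.3% and 1.79%. The highest of the 9 were Ppp1r3c, a glycogen-targeting subunit of a phosphatase (1.90, SE 0.371, adjusted p = 0.00112, edgeR), and 1500015O10Rik (1.71, SE 0.285, adjusted p = 0.000295). The genes that fell were Tnn (-1.87, SE 0.118, adjusted p = 1.79e-08) and the peptidase inhibitor Pi15 (-1.06, SE 0.2, adjusted p = 0.000869). The call of Pi15 was lost without P3 replicate 3 (-0.91) or P5 replicate 4 (-0.93). At P7 against P5, 19 genes were called (3.47% of all genes). Of the higher genes 4 rose and 6 fell, and of the lower genes 7 rose and 2 fell. Over all genes 1.19% rose and 2.28% fell, and among the eligible genes 0.677% and 1.85%. Without replicate 1 of P7, 18 were called, with 2 higher genes that rose and 7 that fell. Gzme rose by 3.66 (SE 0.287, adjusted p = 2.95e-07) and Ppbp by 4.03 from 28 reads in all at P5 (SE 0.396, adjusted p = 1.7e-06). Oasl2 fell by 2.02 (SE 0.283, adjusted p = 5.64e-05) and Gjb2 fell by 1.68 (SE 0.422, adjusted p = 0.00931). Gjb2 thus rose to P3 and was lower again at P7, with 2.02, 3.42, 1.73 and 1.19 CPM. The passage comparisons share libraries, so their counts are not independent of each other.

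In the other experiments the most genes of the set were called with Atf3 sh6. Atf3, a stress-induced AP-1 factor, was low in these cells, with 2.82 to 3.34 CPM in the non-targeting libraries, 0.458 to 2.12 CPM with sh5 and 1.47 to 2.06 CPM with sh6. With sh6, 81 of the 147 genes were called, where 15.7% of all 13345 genes were called. Of the 81 higher genes 49 fell and 9 rose, with a median log2 fold change of -1.28. Over all genes 10.9% fell and 4.83% rose, and among the eligible genes 8.15% and 3.53%. Of the 66 lower genes 14 rose and 9 fell, with a median of 0.20. With sh5, 32 genes were called (5.2% of all genes), of which 21 were higher genes that fell and 2 higher genes that rose, beside 7 lower genes that rose and 2 that fell. The medians with sh5 were -0.44 for the higher and 0.14 for the lower genes. Over all genes 1.38% rose and 3.82% fell with sh5, and among the eligible genes 0.705% and 2.96%. Without replicate 3 of sh5, 29 genes were called with sh5 and 79 with sh6. The Atf3 hairpins share their controls, so their counts are not independent.

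Col8a2 had the largest fall with both Atf3 hairpins. It had 43.0, 49.3 and 56.6 CPM with the non-targeting hairpin, 7.49, 10.2 and 6.48 CPM with sh5 (log2 fold change -2.63, SE 0.224, adjusted p = 8.01e-05) and 0.679, 0.174 and 0.743 CPM with sh6 (-6.47, SE 0.313, adjusted p = 1.73e-07, edgeR). The groups were fully apart, with sh6 lowest. Cmklr1 had 38.8, 42.9 and 42.1 CPM in the controls, 18.7, 20.9 and 17.5 CPM with sh5, and 2.04, 2.67 and 2.63 CPM with sh6 (-4.02, SE 0.139, adjusted p = 3.18e-08 for sh6). Lama2 had 103, 103 and 102 CPM in the controls and 41.8, 49.7 and 49.1 CPM with sh6 (-1.08, SE 0.0832, adjusted p = 3.11e-06). Slco2a1 fell by 1.67 with sh6 (SE 0.139, adjusted p = 5.16e-06), Igfbp3 by 2.85 (SE 0.117, adjusted p = 8.02e-08), Nid2 by 2.35 (SE 0.18, adjusted p = 3.11e-06) and Smoc2 by 1.45 (SE 0.109, adjusted p = 2.84e-06). Aldh1a1, a retinaldehyde dehydrogenase, had 4.24 to 5.73 CPM in the controls and 5 reads in all with sh6 (-5.55, SE 0.519, adjusted p = 1.2e-05). These were higher with both Tead1 hairpins and lower with Atf3 sh6, in which fibroblast markers were lower as well. The summed level of 14 fibroblast markers was 40360 to 41940 CPM in the Atf3 controls, 27200 to 39200 CPM with sh5 and 17360 to 18520 CPM with sh6, and Col1a1 and Col1a2 have the highest levels in this sum. Of the 14 markers 5 fell and 1 rose with sh6 (median -0.83), and 0 fell and 1 rose with sh5 (median 0.05). The part of this difference was not tested.

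Gzme, Ptgs2 and Sprr2k led the rises. Gzme had 0.984, 1.49 and 0.986 CPM in the controls, 6.55, 6.35 and 9.45 CPM with sh5 (2.69, SE 0.225, adjusted p = 6.84e-05) and 12.9, 11.8 and 12.3 CPM with sh6 (3.48, SE 0.222, adjusted p = 9.66e-07, edgeR). Ptgs2 had 79.9, 79.3 and 72.4 CPM in the controls, 222, 203 and 254 CPM with sh5 (1.55, SE 0.0896, adjusted p = 9.66e-06), and 680, 711 and 720 CPM with sh6 (3.24, SE 0.0949, adjusted p = 1.78e-08). Both genes rose with each Atf3 hairpin and were lower with each Tead1 hairpin. Sprr2k, a protein of the epidermal envelope, went in opposite directions, with 0.941, 1.21 and 1.60 CPM in the controls, 11 reads in all with sh5 (-2.61, SE 0.54, adjusted p = 0.00548) and 15.8, 17.9 and 13.9 CPM with sh6 (3.71, SE 0.331, adjusted p = 8.52e-06). Sprr2k belongs to a family of like sequences, which makes its count uncertain. The difference of the Atf3 hairpins was tested directly as sh6 against sh5. Of the 81 higher genes 41 were called, 36 of them lower with sh6. Over all genes 15.8% were called, 6.36% higher and 9.39% lower, and among the eligible genes 5.18% and 7.04%. Stk4 rose with sh6, from 35.5, 39.4 and 37.8 CPM to 92.0, 92.8 and 88.8 CPM (1.33, SE 0.0744, adjusted p = 4.06e-07), while Lats2 did not pass the fold threshold (0.58). The Atf3 level also differed in the Tead1 libraries, at 3.78 to 4.27 CPM in the controls, 2.25 to 2.97 CPM with sh3 and 2.49 to 2.74 CPM with sh4. Tead1 with the Atf3 hairpins was 655 to 741 CPM (sh5) and 552 to 656 CPM (sh6) against 506 to 554 CPM, and was not called.

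**Figure D5:**
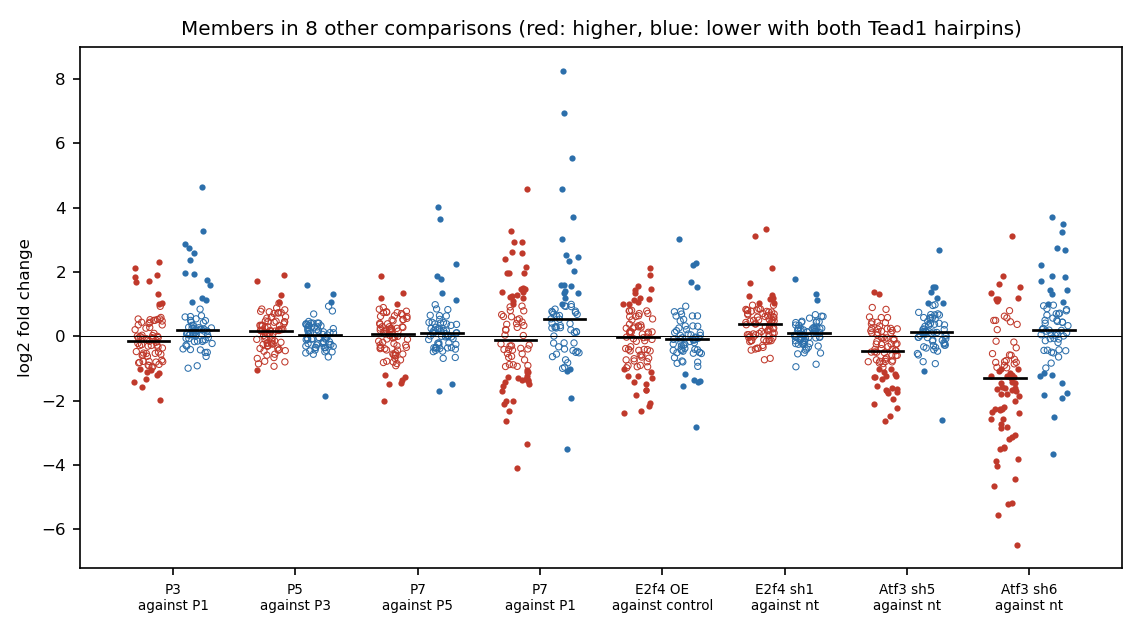
Log2 fold change (edgeR) of the higher (red) and lower (blue) genes in 8 comparisons outside the Tead1 experiment, where filled points were called, open points were not and bars are medians. The higher genes have a median of -1.28 with Atf3 sh6 and of 0.39 with E2f4 sh1, and the lower genes a median of 0.54 at P7 against P1.

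With E2f4 knockdown, the interferon-stimulated genes Isg15 and Oasl2 rose, while Tap1 did not pass the fold threshold (0.97, adjusted p = 4.76e-05, edgeR), and 0 genes of the set were called lower by edgeR. E2f4 was at 59.4 to 61.1 CPM with the non-targeting hairpin and at 20.3 to 21.6 CPM with sh1. With sh1, 13 genes were called, all of which rose. Over all 12310 genes 1.67% were called, 1.46% up and 0.211% down, and among the eligible genes 0.995% and 0.126%. The 13 were 10 of the 81 higher genes, whose median was 0.39, and 3 of the 66 lower genes, whose median was 0.11. DESeq2 called 12, also with 0 that fell. Without replicate 1 of sh1, edgeR called 14, with 1 lower gene that fell. With no minimum fold change, 35 higher genes rose and 3 fell, and 12 lower genes rose and 5 fell. At that setting 2192 of all 12310 genes were called, and 1233 of them rose. Isg15 had 2.92, 3.56 and 5.21 CPM in the controls and 29.7, 43.4 and 45.9 CPM with sh1 (3.34, SE 0.206, adjusted p = 2.14e-07, edgeR). Oasl2 had 2.82, 2.67 and 5.79 CPM in the controls and 24.1, 46.7 and 27.7 CPM with sh1 (3.12, SE 0.282, adjusted p = 6.21e-06). In both genes the groups were far apart. Of the list of interferon-stimulated genes, 29 of 31 tested genes rose with E2f4 sh1, with a median of 2.13. The summed fibroblast markers were at 36500 to 37840 CPM in the E2f4 knockdown controls and at 28340 to 31580 CPM with sh1, while 0 of the 14 markers were called (median 0.01). Of the macrophage markers 2 of 3 tested genes, Csf1r and Lyz2, rose with sh1 (median 1.22), and the sum of 14 markers was 5.83 to 13.6 CPM in the controls and 14.9 to 22.8 CPM with sh1. The part of these cells in the result was not tested. The same list fell in 12 of 31 tested genes with Atf3 sh5 and 15 with sh6, where the spread of Isg15 among the 3 controls was large (39.1 ± 28.6 CPM, SD, n = 3). The lower genes that rose with E2f4 sh1 were Gzme (1.79, SE 0.286, adjusted p = 0.000642), Krt20 (1.33, SE 0.229, adjusted p = 0.00109) and Popdc2 (1.12, SE 0.256, adjusted p = 0.0077).

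With E2f4 overexpression, at 1116 to 1171 CPM of E2f4 against 35.9 to 47.3 CPM, genes of the set differed in both directions. In this comparison 37 of the 147 genes were called, where 18.1% of 13199 genes were called. Of the higher genes 12 rose and 14 fell, and of the lower genes 5 rose and 6 fell. Over all genes 7.69% rose and 10.4% fell, and among the eligible genes 6.48% and 7.08%. Of 5 tested markers of sex, 0 rose and 4 fell with E2f4 (median log2 fold change -1.83, edgeR). Those that fell were Xist and the Y-linked genes Ddx3y, Eif2s3y and Uty. The groups may thus differ in their mix of cells, and the part of this in the calls was not tested. Gzme had 18.6 and 22.3 CPM with E2f4 and 1.99 and 3.15 CPM in the controls (3.02, SE 0.221, adjusted p = 6.02e-06, edgeR). Gjb2 had 38.1 and 39.7 CPM with E2f4 and 8.22 and 7.92 CPM in the controls (2.28, SE 0.137, adjusted p = 2.66e-06). Slc5a7 fell from 46.9 and 34.5 CPM to 6.06 and 5.26 CPM (-2.83, SE 0.178, adjusted p = 3.13e-06), and Cd55, which protects cells from complement, fell from 30.1 and 25.8 CPM to 6.06 and 4.50 CPM (-2.38, SE 0.173, adjusted p = 6.02e-06). Tead1 differed little in either E2f4 experiment (-0.02 and -0.01). Over the 8 comparisons outside the Tead1 experiment, 75 of the 81 higher genes and 41 of the 66 lower genes were called at least once (92.6% and 62.1%), against 42.2% of all genes tested and 32.7% of eligible genes, and Gzme and Krt20 were called in 7 of them. Lower genes with 1 or both of the runs TGTGTGA and GTGTGAA in their 3′ UTR had 11 of 38 called at P7 against P1 and 9 of 38 with Atf3 sh6. Those with neither had 11 of 27 and 14 of 28, and these shares were not tested against each other.

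In the ATAC-seq data, nearly all of these genes had open chromatin at a start site. A peak lay within 1000 bases of a start site for 140 to 142 of the 147 genes in the P1 samples, 135 to 139 at P3, 138 to 141 at P5 and 137 or 138 at P7, which is 91.8% to 96.6%. For the eligible genes it was 98.2% to 98.7% of 10338. Peak strength was taken as the rank of the strongest such peak, by its -log10 p, in percent of the peaks of its sample, since the peak lists hold no read counts. The P1 and P7 samples did not overlap for 75 of 144 genes, 14 of them higher and 61 lower at P7, where 48.2% of 10245 genes did not overlap, 10.6% higher and 37.6% lower. No gene passed the exact permutation test after adjustment, with 4 samples against 3, 35 splits and a smallest p of 0.0286. At this unadjusted p there were 4022 genes in all and 64 of the 144. Lists called per sample differ in length, from 203912 to 265932 peaks, and the read depth behind them is unknown.

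The peaks named here were chosen after their values were seen. At Ccnd1, which encodes cyclin D1, the percentile rose from 44.5, 55.7, 59.2 and 58.1 at P1 to 76.8, 80.6 and 83.6 at P7, a difference of 25.95 points (two-sided exact permutation p = 0.0286, adjusted p = 0.0728). At Gzme it went from 74.0 to 80.5 at P1 to 95.8 to 97.7 at P7. At Col28a1 there was no peak in any P1 or P3 sample, and it was at 64.5 to 72.9 at P7. Falls were seen at Icam1, from 49.9 to 64.3 at P1 to 8.11 to 20.6 at P7, at Fbn2, from 41.8 to 56.6 to 3.84 to 22.3, and at Lama2, from 63.9 to 80.3 to 39.7 to 49.7. The peak of Tead1 was at 79.9 to 85.2 at P1 and 88.0 to 91.6 at P7 (exact permutation p = 0.0571, adjusted p = 0.116). The direction of a peak and of its RNA were the same at Ccnd1, Gzme, Icam1 and Col28a1, where RNA was called, and opposite at Vcam1, where the percentile fell by 21.9 points and the RNA rose.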

How the data were processed

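RNA-seq libraries were described by gene counts. According to the methods of the study and the processing notes of the deposited files, the authors used Trimmomatic 0.39 for trimming, HISAT2 2.2.1 for alignment (mm10) and HTSeq 0.12.4, without strand, for the counts. The ATAC-seq peak lists hold, as deposited, the -log10 p of each peak from MACS2 (used here) and its fold enrichment (not used), after alignment with Bowtie2 2.3.5.1. Methylation data were not analysed here. Members and gene lists were chosen with earlier results of these data known. Rows that name no gene held 9.805% to 10.658% of counts in the Tead1 libraries, 7.5% to 16.096% for E2f4, 10.45% to 16.761% for Atf3 and 0% for the passages, and were left out.

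Every comparison outside Tead1 was tested over all genes with edgeR 4.0.16 in R 4.3.3 (filterByExpr, TMM, quasi-likelihood test, Benjamini-Hochberg adjustment), and all adjusted p for RNA are from this test. Each experiment was fitted separately with all its groups. A call needed an adjusted p under 0.05 and a fold change over 2. On simulated data with 200 changed genes, 96% of 3-fold changes were recovered for the passages (13228 genes), 94% for E2f4 overexpression (13036), 97% for E2f4 knockdown (12195) and 92% for Atf3 (13189). Replicate numbers were not taken as pairs, since same-number libraries did not deviate together in every pair. Named genes were Tead1, the 10 higher and 10 lower genes with the largest smaller difference of the hairpins at 10 CPM or more, genes on the lists, the 6 highest and 6 lowest calls at P7 against P1, the 2 highest and 2 lowest of each other comparison and genes next to the threshold. Others named, such as Hdlbp, Popdc2, Zdhhc2 with passage, Ccnd1 and Col28a1, were chosen after their values were seen. Peak strength was compared with a two-sided exact permutation test. Sequences and gene positions came from RefSeq on GRCm38.p6 (the same build as mm10) and were read with pysam 0.24.0. Python 3.11.15, numpy 2.4.6, pandas 2.3.3, scipy 1.17.1, matplotlib 3.10.9 and, as an alternative test, DESeq2 1.42.0 were used. Alternatives were another normalization, no minimum fold change, no filter on low counts, a block for replicate numbers, a fit of the compared groups alone, each library left out and, chosen after seeing the data, the library sum in place of TMM.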

Additional observations from a re-analysis of the deposited data

Results flagged for a closer look

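Among the named genes, 16 of 228 groups of 4 passage libraries held a library far from the other libraries of its group, where chance alone gives this in about 1 in 20 groups. Replicate 1 of P7 stood apart in 3 genes. Its level of Tead1 was 264 CPM (375 to 394 in the other P7 libraries), of Lats2 293 CPM (385 to 401) and of Ppbp 5.34 CPM (7.64 to 8.05). Replicate 1 of P3 stood apart for Khk at 4.9 CPM (3.68 to 3.86), Tspan18 at 1.96 CPM (1.43 to 1.45) and Sprr2k at 0.0654 CPM (0 in the others). Replicate 2 of P1 stood apart for Cebpa at 44 CPM (33.2 to 34.7) and Slco2a1 at 90.7 CPM (68 to 69.1). Replicate 4 of P3 stood apart for Lama2 at 187 CPM (159 to 162) and Tgfbi at 56 CPM (116 to 124). Other single cases were Isg15 at 36.5 CPM in replicate 4 of P5 (10.1 to 14.4), Prrt4 at 4.96 CPM in replicate 2 of P3 (9.1 to 9.8), Efna3 at 6.27 CPM in replicate 2 of P7 (4.76 to 4.92) and Klk8 at 1.48 CPM in replicate 3 of P1 (0.735 to 0.819). The cases of Ppbp in replicate 4 of P1 at 0.0673 CPM (0 in the others) and of Sprr2k in replicate 2 of P5 at 0 CPM (0.0636 to 0.0644) rest on single reads. Causes were not tested.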

How the results depend on the processing

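The number of genes was 32 with a threshold of 1 and 407 with a threshold of 0.5 in place of 0.7, and 142 to 170 when each Tead1 library was left out in turn. With no minimum fold change, the calls at P3 against P1 rose to 76, where 4493 of all 13442 genes were called. There were 49 at P5 against P3 (3862 of all genes), 56 at P7 against P5 (2254) and 119 at P7 against P1 (8398). With E2f4 overexpression 90 were called (7548 of 13199 genes), and with E2f4 sh1 55 (2192 of 12310). The Atf3 hairpins gave 85 calls with sh5 (4785 of 13345 genes) and 121 with sh6 (6642). The mean difference in genes with a promoter peak, P7 minus P1, was -3.083 and became -7.833 when every sample was limited to an equal number of its highest-ranked peaks. The library sum in place of TMM, chosen after seeing the data, turned the change of Tead1 at P7 against P1 from 0.12 to -0.09 and moved the median of all genes there from -0.01 to -0.22. The size factors of DESeq2 changed the sign of 3 genes at P3 against P1, 1 at P7 against P5 and 1 with E2f4 sh1.

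Leaving out each library in turn gave 28 to 33 calls at P3 against P1, 7 to 11 at P5 against P3, 17 to 20 at P7 against P5, 63 to 69 at P7 against P1, 35 to 40 with E2f4 overexpression, 10 to 14 with E2f4 sh1, 26 to 33 with Atf3 sh5 and 79 to 81 with Atf3 sh6. At P7 against P5, 4 higher genes rose and 6 fell. This became 5 and 4 without P5 replicate 2, and 2 and 7 without P7 replicate 1. At P7 against P1, 22 rose and 21 fell, which became 21 and 24 without P1 replicate 3. Leaving out a sample gave -3.333 to -2.667 for promoter peaks. Peak strength then had 0 adjusted calls, which was fixed in advance and shows nothing about stability. The smallest p that the exact permutation test could give was 0.05 without a P1 sample and 0.0667 without a P7 sample.

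Replicate numbers were not taken as pairs, and these data do not settle whether they mark paired samples. The paper speaks of independent series of samples for its methylation data, so the passage libraries may be paired. It does not link the replicate numbers of RNA-seq to these series. Of 24 same-number pairs of passage libraries, 12 had a correlation over 0.1. The median correlation was 0.094 for same-number pairs and -0.026 for other pairs. With a replicate block the calls were 30, 9, 18 and 66 for the passages in the order above, 37 and 13 for E2f4 overexpression and sh1, and 30 and 80 for Atf3 sh5 and sh6.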

Other observations

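Some ligands and receptors among the 147 genes belong to the same signal, and these were picked after their values were seen. Gdnf, a neurotrophic ligand, was higher with the Tead1 hairpins (0.73 with sh3 and 0.92 with sh4 in log2 difference), and Gfra1, its receptor, was lower (-0.94 and -1.07). Adm was higher, and so was Calcrl, a part of the adrenomedullin receptor (1.2 and 0.91). The prostacyclin receptor Ptgir was higher (1.14 and 0.82) beside the prostaglandin transporter Slco2a1, while the synthase Ptgs2 was lower. The netrins went opposite ways, with Ntn1 higher (1.02 and 1.13) and Ntn4 lower (-0.93 and -1.07). Cgas, a sensor of DNA in the cytosol, was higher by 0.75 with sh3 and 0.76 with sh4. None of these differences was tested, since the same libraries chose the genes.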
